A study of Mus musculus with 41 samples.

Results

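The integrated stress response core was taken as 10 genes chosen by symbol: the eIF2 kinase genes Eif2ak1, Eif2ak2, Eif2ak3 and Eif2ak4, the phosphatase subunit genes Ppp1r15a and Ppp1r15b, and the transcription factor genes Atf4, Atf5, Ddit3 and Atf3. Each of the 10 symbols was matched to a gene record among the 22438 genes with footprint counts and to the same record among the 55385 genes (142552 transcripts) with mRNA values. A further footprint record, which the annotation also names Ddit3, covers the upstream reading frame of that gene and is described separately.

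The integrated stress response converges on phosphorylation of translation initiation factor eIF2, which lowers general initiation while ribosomes that pass upstream open reading frames (uORFs) reach the coding sequences of a small set of mRNAs. HRI (Eif2ak1) responds to heme shortage and mitochondrial stress, PKR (Eif2ak2) to double-stranded RNA, PERK (Eif2ak3) to unfolded protein in the endoplasmic reticulum (ER) and GCN2 (Eif2ak4) to uncharged tRNA and stalled or collided ribosomes. GADD34 (Ppp1r15a) and CReP (Ppp1r15b) bring protein phosphatase 1 to eIF2, the former as an induced feedback subunit and the latter as a constitutive one. ATF4, ATF5, CHOP (Ddit3) and ATF3 are the transcription factors of the response, and the mRNAs of Atf4, Ddit3 and Atf3 have been described as targets of nonsense-mediated decay (NMD).

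The study deleted Hbs1l or Pelo, whose products split ribosomes stalled on mRNA, or Upf2, a core NMD factor, and the question here is how this stress pathway stood in each deletion at the level of ribosome footprints and of mRNA. Footprints were counted in 30 libraries and poly(A) mRNA in 11. Embryos were C57BL/6NJ at embryonic day 8.5, Hbs1l -/- against Wildtype, with 3 libraries each made from pooled embryos. Cerebella were C57BL/6J at postnatal day 14, Atoh-Cre;Hbs1l cKO against Atoh-Cre;Hbs1l +/+, with 3 libraries each made from single cerebella. The controls thus also carried the Cre, which acts in the granule cell lineage. The paper lists these cKO mice as Hbs1l fl/-, so their other cerebellar cells kept a floxed copy beside a deleted one. Mouse embryonic fibroblasts (MEFs) were C57BL/6 cells from single embryos, and every group, controls included, carried CAG-Cre ER and the n-Tr20 B6J/B6J tRNA allele and received tamoxifen. The paper's list of genotypes gives the same tRNA allele for the Atoh-Cre;Hbs1l cKO mice. The mutant MEFs were the Hbs1l (fl/-), Pelo (fl/fl) and Upf2 (fl/fl) cKO lines, with genotypes from that list, called Hbs1l-/-, Pelo-/- and Upf2-/- below. Each had 3 footprint libraries and 3 control libraries of its own sequencing pool. The mRNA of MEFs was measured in 3 control, 3 Hbs1l-/-, 2 Pelo-/- and 3 Upf2-/- libraries, which came from other dishes than the footprints.

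Footprint depth was 2634480 to 7298812 counts in embryos, 10919139 to 22591768 in cerebella and 5782990 to 25607974 in MEFs, and mRNA depth was 22713643 to 86425762 estimated counts. Hbs1l footprints fell in the Hbs1l mutants, by 3.60 (embryo), 1.5 (cerebellum) and 4.15 (MEFs) on the log2 scale, and Pelo footprints fell by 3.78 in Pelo-/- MEFs. Upf2 itself went against its label: the libraries labelled Upf2-/- held 113 to 119 CPM (counts scaled by library size) of Upf2 footprints against 49.2 to 58.3 in controls, and 8.61 to 20.6 TPM (a transcript abundance scaled by length and depth) of its mRNA against 3.82 to 5.63. Gene totals cannot show which exons are missing, so these cells are called the libraries labelled Upf2-/- throughout. According to the paper, NMD transcripts and those with retained introns accumulated in its Upf2-/- MEFs specifically. Its western blots found phosphorylated eIF2α unchanged from controls in Pelo-/- and in Upf2-/- MEFs. Footprint and mRNA levels do not measure that phosphorylation, so a rise of members below does not show that the response was active. Control MEF footprint libraries with the same number in different pools differed by a chi-square of 1.10 to 1.19 per gene, against 4.06 to 12.6 for other pairs, so the 3 pools hold nearly the same control libraries and the MEF comparisons are not independent of each other. Of the defining markers, 6 of 6 for granule cells in cerebella, 5 of 5 for early embryos in embryos and 6 of 6 for fibroblasts in MEFs had a mean of at least 1 CPM. The fibroblast markers passed that level in every tissue, at a summed 33125 to 36208 CPM in control MEFs of the Hbs1l pool, 1957 to 2816 in control embryos and 1521 to 4980 in control cerebella. Fewer cells of a type and less RNA per cell cannot be told apart in these bulk libraries.

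Start codons are shown for Atf4, Atf5, Ddit3 and Ppp1r15a, which are not the only members with upstream ATGs, because these mRNAs are compared below between footprints and mRNA. Each line gives 9 bases before and 6 after an ATG, which is in capitals, from the Gencode M21 transcripts of GRCm38, 1 annotated transcript for each gene.

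Atf4 upstream start 2: gcggccaccATGgcgtat
Atf4 upstream start 3: gcctaagccATGgcgctc
Atf4 coding start: ccccacaacATGaccgag
Atf5 upstream start 1: gcccgcgcaATGgctctg
Atf5 upstream start 2: ttcgccgccATGgagtcc
Atf5 coding start: gtcacagccATGtcactc
Ddit3 upstream start 1: gattatatcATGttgaag
Ddit3 upstream start 2: atgttgaagATGagcggg
Ddit3 coding start: cgtgcagtcATGgcagct
Ppp1r15a upstream start 3: gagggcgacATGaacccg
Ppp1r15a coding start: cccagacacATGgccccg

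In Atf4 (plus strand of chromosome 15) these ATGs lie at chr15:80255582-80255584, chr15:80255681-80255683 and chr15:80256299-80256301. The second uORF of Atf4 has 3 codons and ends before the coding start, while the third has 59 codons and runs into the coding sequence in another frame. The first upstream start of Atf4, not shown, opens 36 codons that also end before the coding start. Atf5, at chr7:44816535-44816537, chr7:44816404-44816406 and chr7:44815164-44815166 on the minus strand, has the layout of the Atf4 frames shown, with 3 codons and then 58. In Ddit3 (chr10:127290829-127290831, chr10:127290838-127290840 and chr10:127295341-127295343, plus strand) both upstream starts are in 1 frame of 34 and 31 codons that ends before the coding start. The Ppp1r15a leader, on the minus strand of chromosome 7, holds 3 upstream starts whose frames all end before the coding start at chr7:45525380-45525382. The one shown (chr7:45526087-45526089) opens a frame of 26 codons and lies 104 bases before the coding start. Ppp1r15b and Eif2ak3 leaders also held 3 upstream ATGs each, those of Atf3 and Eif2ak2 held 1, and those of Eif2ak1 and Eif2ak4 held 0.

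In control MEFs, Atf4 and Atf5 were the members with the densest footprints, at 60.4 ± 5.75 and 56.2 ± 4.76 footprint CPM per kilobase of coding sequence (SD, n = 3, Hbs1l pool), and their ranges overlapped. Ppp1r15b followed at 29.3, Ddit3 at 22.2, Eif2ak1 at 20.1, Eif2ak2 at 18.9, Atf3 at 9.09, Eif2ak3 at 6.73, Eif2ak4 at 6.48 and Ppp1r15a at 4.05 on the same scale. Neighbours overlapped between Ddit3 and Eif2ak1, between Eif2ak1 and Eif2ak2, between Atf3 and Eif2ak3 and between Eif2ak3 and Eif2ak4. The order of mRNA levels was different. Atf5 (151 ± 35.3 TPM) and Atf4 (126 ± 20.5 TPM) overlapped at the top, and Ddit3 (39.5 TPM) and Ppp1r15a (26.8 TPM) came next, ahead of Ppp1r15b (13.5 TPM), Eif2ak1 (11.7 TPM), Eif2ak4 (4.71 TPM), Atf3 (4.36 TPM), Eif2ak2 (3.84 TPM) and Eif2ak3 (2.32 TPM). Ranges of mRNA also overlapped between Ppp1r15b and Eif2ak1, between Eif2ak4 and Atf3 and between Atf3 and Eif2ak2. Footprint density per TPM was low for the 4 members whose starts are shown above: among 10274 genes Ppp1r15a stood at percentile 2.22, Atf5 at 5.65, Atf4 at 7.88 and Ddit3 at 9.73. Eif2ak2 was at the other end, at percentile 92.6, and the remaining members lay between 38.5 and 77.4, among them Ppp1r15b (63.5) and Eif2ak3 (77.4) with 3 upstream ATGs each. These percentiles rest on control libraries of both assays from different dishes.

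Atf4 and Eif2ak1 had the highest footprint densities of the 10 members in embryo controls (62.6 ± 3.63 and 52.8 ± 0.946 CPM per kilobase, n = 3) and in cerebellar controls (43.3 ± 3.05 and 41.0 ± 6.08), where their ranges overlapped. Atf5, close to Atf4 in MEFs, was at 12.8 in embryos and 8.52 in cerebella. Ppp1r15a had the lowest mean in all 3 sources, with 1.14 in cerebella and 2.81 in embryos, where its range overlapped that of Ddit3 (5.12).

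Footprints of the members changed in MEFs in only 1 direction. In Hbs1l-/- MEFs 4 of the 10 members rose and 0 fell (edgeR quasi-likelihood test, Benjamini-Hochberg adjusted p at most 0.05 over all genes), against 34.1% of all genes tested that changed and 17.4% that rose. Pelo-/- MEFs had 5 higher and 0 lower, where 44.1% of genes changed and 22.9% rose, and the libraries labelled Upf2-/- had 6 higher and 0 lower, where 43.4% changed and 22.3% rose. With 10 members, these counts are given as a description beside the shares of all genes. The median log2 change of the members was 0.22, 0.33 and 0.57, beside all-gene medians of -0.01, 0.00 and 0.00. Groups did not overlap for 5, 5 and 7 members, where 46.4%, 55.4% and 54.1% of all genes did not.

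In mRNA, Hbs1l-/- MEFs had 4 members higher and 0 lower (23.1% of genes changed, 12.7% rose), Pelo-/- MEFs 4 higher and 1 lower (32.1%, 15.5% rose) and the libraries labelled Upf2-/- 5 higher and 0 lower (20%, 13.2% rose). Member medians were 0.23, 0.29 and 0.48 on the log2 scale, beside all-gene medians of -0.01, -0.01 and -0.02. Groups did not overlap for 4, 8 and 5 members, as for 37.2%, 53.7% and 32% of genes. Translational efficiency (TE), tested as the footprint change minus the mRNA change, moved for 0 members in Hbs1l-/- MEFs, where edgeR found 2 genes of all tested (0.0152%). At an unadjusted p under 0.05 there were 2 members, beside 2116 of 13146 genes, and DESeq2 found 0 members. TE rose for 3 and fell for 4 members in Pelo-/- MEFs (40.5% of genes changed), and rose for 2 and fell for 3 in the libraries labelled Upf2-/- (18%).

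**Figure D1:**
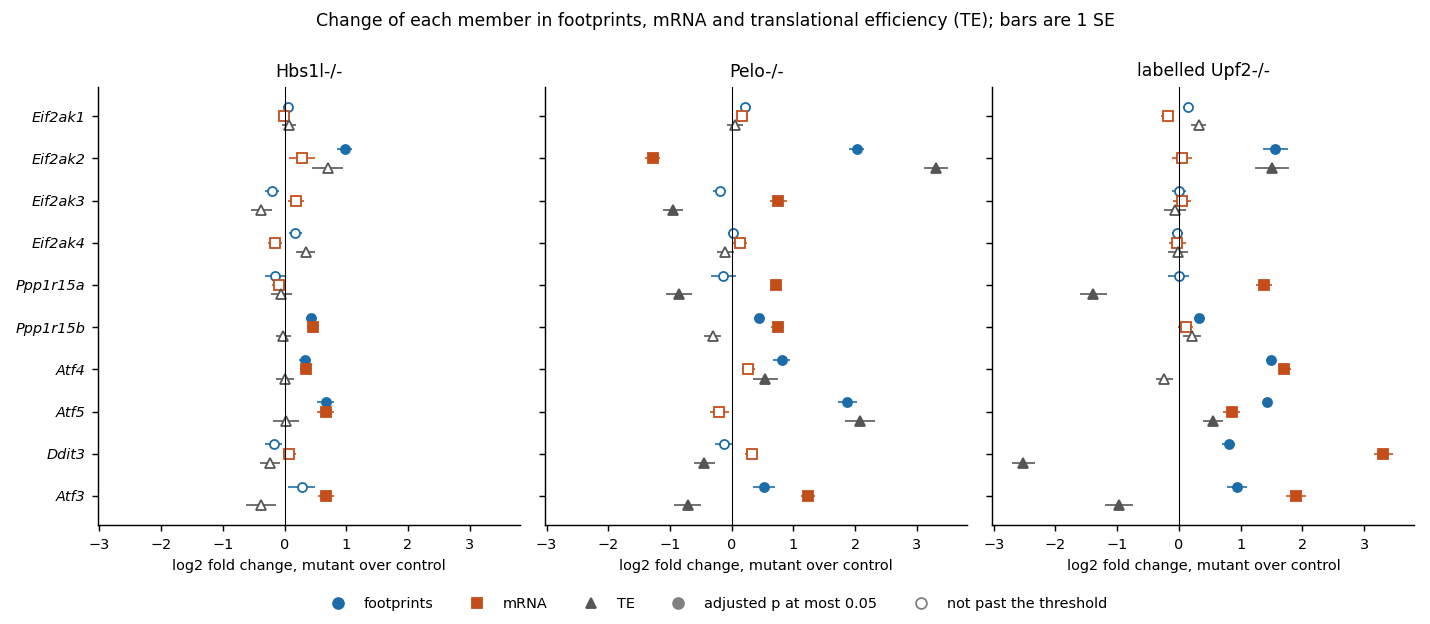
Log2 fold changes of the 10 members in each comparison for footprints, mRNA and TE, with 1 SE. Atf4, Atf5, Eif2ak2 and Ppp1r15b pass the threshold to the right of 0 for footprints in all 3 MEF mutants. The mRNA of Ddit3 in the libraries labelled Upf2-/- and the TE of Eif2ak2 in Pelo-/- MEFs both lie at 3.31.

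Of the kinase genes, Eif2ak2 rose in footprints in every MEF mutant and Eif2ak1, Eif2ak3 and Eif2ak4 in none. Eif2ak2 (ENSMUSG00000024079.4, chr17:78852564-78882573, minus strand) encodes PKR and is itself an interferon-stimulated gene. Its footprints were 31.5, 26.1 and 30.1 CPM in the controls of the Hbs1l pool and 60.6, 64.7 and 47.7 in Hbs1l-/- MEFs. Pelo-/- MEFs had 115, 106 and 140 CPM against 28.6, 26.8 and 33.7. The libraries labelled Upf2-/- had 116, 90.9 and 56.5 CPM against 28.1, 27.2 and 33.7. All mutant libraries were above all controls, and the Upf2-labelled ones were the most spread. The log2 changes were 0.97 (SE 0.12, adjusted p = 3.50e-05), 2.03 (SE 0.12, adjusted p = 1.47e-06) and 1.56 (SE 0.20, adjusted p = 0.000101).

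Eif2ak2 mRNA was not called higher in any of the 3 mutants. It was 3.50, 3.88 and 4.14 TPM in control MEFs and 3.20, 6.12 and 4.01 TPM in Hbs1l-/- MEFs, which overlapped (log2 change 0.28, SE 0.21, adjusted p = 0.349). In Pelo-/- MEFs it was 1.79 and 1.42 TPM, below every control, and fell by 1.28 on the log2 scale (SE 0.13, adjusted p = 0.00110). The libraries labelled Upf2-/- had 4.38, 4.69 and 2.67 TPM (log2 change 0.05, adjusted p = 0.853). The TE of Eif2ak2 rose by 3.31 in Pelo-/- MEFs (SE 0.19, adjusted p = 3.76e-07) and by 1.5 in the libraries labelled Upf2-/- (SE 0.28, adjusted p = 0.00296), and in Hbs1l-/- MEFs its estimate was 0.70 (SE 0.26, adjusted p = 0.206).

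The other interferon-stimulated genes moved in the same libraries. In footprints 17 of 17 tested genes of a 20-gene list rose in Hbs1l-/- MEFs, 20 of 20 in Pelo-/- MEFs and 20 of 20 in the libraries labelled Upf2-/-, with medians of 3.01, 5.91 and 4.49 on the log2 scale, where 17.4%, 22.9% and 22.3% of all genes rose. In the controls of each pool 12 of the 20 had a mean of at least 1 CPM. Some others, such as Mx2 in the Pelo pool (0.03 CPM in controls, 9.39 in mutants), passed the filter only through the mutants. A rise of such genes is built into these counts and medians. The summed footprints of the list were 605 to 996 CPM in Hbs1l-/- MEFs against 121 to 189 in controls, 2534 to 3724 against 129 to 188 in Pelo-/- and 578 to 1689 against 118 to 181 in the libraries labelled Upf2-/-. In mRNA 19 of 19 rose in Hbs1l-/- MEFs (286 to 561 TPM against 33.9 to 55.8) and 16 of 20 in the libraries labelled Upf2-/- (66.8 to 140 TPM). Control mRNA had a mean of at least 1 TPM for 7 of the 20. Genes such as Oas2 (0.02 TPM in controls, 0.46 in Hbs1l-/-) passed the filter in these mutants but not in Pelo-/-. A rise of such genes is built into these mRNA counts too, and the genes tested differ between the mutants. In Pelo-/- MEFs 0 of 15 rose and 1, Ifih1, fell, with summed levels of 46.5 to 61.4 TPM. Of all genes 12.7%, 13.2% and 15.5% rose in the mRNA of Hbs1l-/-, Upf2-labelled and Pelo-/- libraries. The rise of these genes in Pelo-/- footprints thus had no counterpart in Pelo-/- mRNA. The assays used different dishes, so a difference between the cells and a difference in translation cannot be told apart. TE rose for 20 of 20 genes of this list in Pelo-/- MEFs, with a median of 5.90, where 40.5% of all genes changed in TE. Only 15 of these 20 genes passed the filter on low counts in Pelo-/- mRNA. In the libraries labelled Upf2-/- TE rose for 16 of 20 (median 2.50), where 18% of all genes changed, and in Hbs1l-/- MEFs for 0 of 19 (median -0.14). Macrophage markers were also higher in footprints, for 3 of 4 (86.6 to 126 CPM against 42.9 to 59.6), 4 of 4 (154 to 235 against 45.6 to 60.0) and 3 of 4 (68.6 to 80.0 against 43.7 to 59.2) in the same order of mutants, and in mRNA for 2 of 4, 0 and 0. The part of these cells and of the interferon genes in the Eif2ak2 result was not tested.

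**Figure D2:**
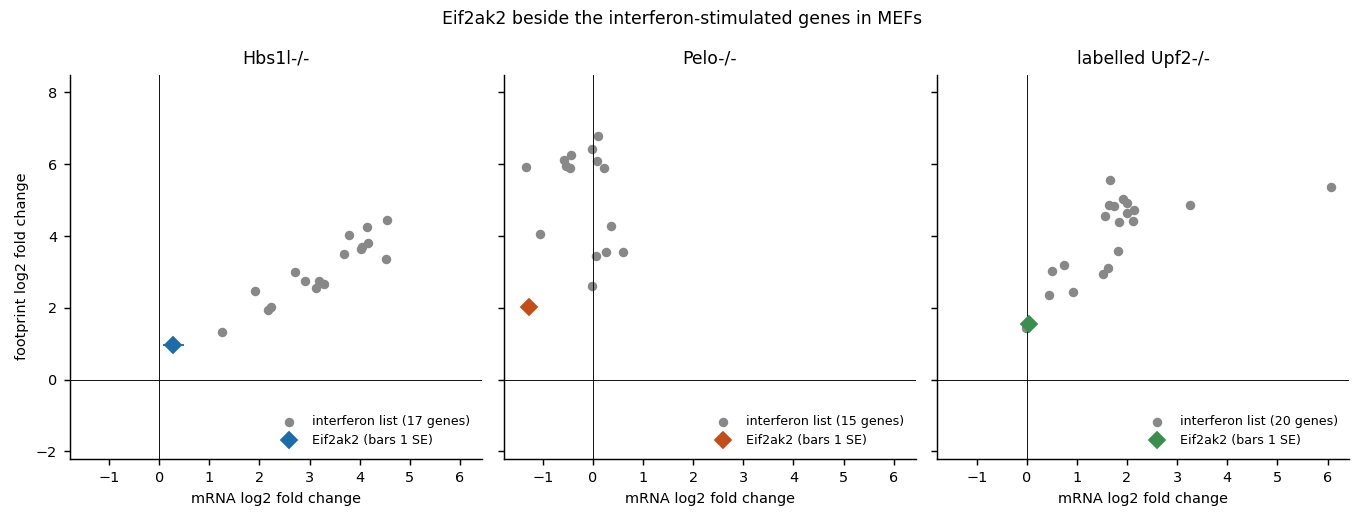
Footprint against mRNA log2 fold change in MEFs for Eif2ak2 (diamond, 1 SE) and the tested interferon-stimulated genes (grey). In Pelo-/- MEFs the grey points spread around 0 in mRNA while every one rose in footprints, and Eif2ak2 sits at -1.28 in mRNA and 2.03 in footprints.

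The promoters were searched on both strands for GAAA, any 2 bases, GAAA, the core of the interferon-stimulated response element, and for TGATGNAA, the core of the element bound by ATF4 and CHOP with C/EBP partners, in RefSeq windows of 250 bases before to 50 after each start site (GRCm38.p6). Of 9 members matched by symbol, 2 held the paired GAAA motif and 1 held TGATGNAA, and no member held both. The windows are shown with the match in capitals because Eif2ak2 and Atf3 were among the members that moved.

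Eif2ak2 paired GAAA: tccgccggGAAAACGAAAcagaagag
Ppp1r15a paired GAAA: aataaaagGAAAGGGAAAtggcacgg
Atf3 TGATGNAA: ggacttggTGATGCAAgtgcgaga

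The Eif2ak2 match (chr17:78882545-78882554, minus strand) lies just after the start site, and the Ppp1r15a match (chr7:45526479-45526488, minus strand) begins 220 bases before it. The Atf3 match (chr1:191183436-191183443) is on the plus strand, opposite to the gene, and begins 110 bases before the start. The paired GAAA motif occurred in 3.44% and TGATGNAA in 3.97% of all 32851 promoters. In the interferon list the former occurred in 10 of 13 promoters, and in the list of ATF4 and CHOP targets TGATGNAA occurred in 9 of 24. A match is only a run of letters and says nothing of binding in these cells.

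The other kinase genes did not pass the test in MEF footprints. Eif2ak1 (HRI, chr5:143817788-143904251) ranged from 33.6 to 44.8 CPM over the 18 MEF libraries. Its log2 changes were 0.06, 0.22 and 0.15 in Hbs1l-/-, Pelo-/- and Upf2-labelled libraries (adjusted p = 0.623, 0.0748 and 0.138), and the Pelo estimate, 0.27 without Pelo-/- replicate 3, then passed (adjusted p = 0.0441). Eif2ak4 (GCN2, chr2:118388618-118475234) ranged from 32.3 to 44.8 CPM, with changes of 0.17, 0.02 and -0.02. Eif2ak3 (PERK, chr6:70844515-70905245) ranged from 17.2 to 27.1 CPM, with changes of -0.20, -0.20 and -0.00. Its mRNA, at 1.94, 2.55 and 2.46 TPM in controls, was 4.35 and 4.25 TPM in Pelo-/- MEFs. This was a rise of 0.76 (SE 0.14, adjusted p = 0.00743), and the TE of Eif2ak3 in these cells fell by 0.95 (SE 0.17, adjusted p = 0.000729). Coding exons of Eif2ak1, Eif2ak3 and Ppp1r15b overlap an annotated exon on the other strand (Ankrd61, Gm43292 and Gm26616), and the strand setting of the footprint counting is not given in the sources used here.

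**Figure D3:**
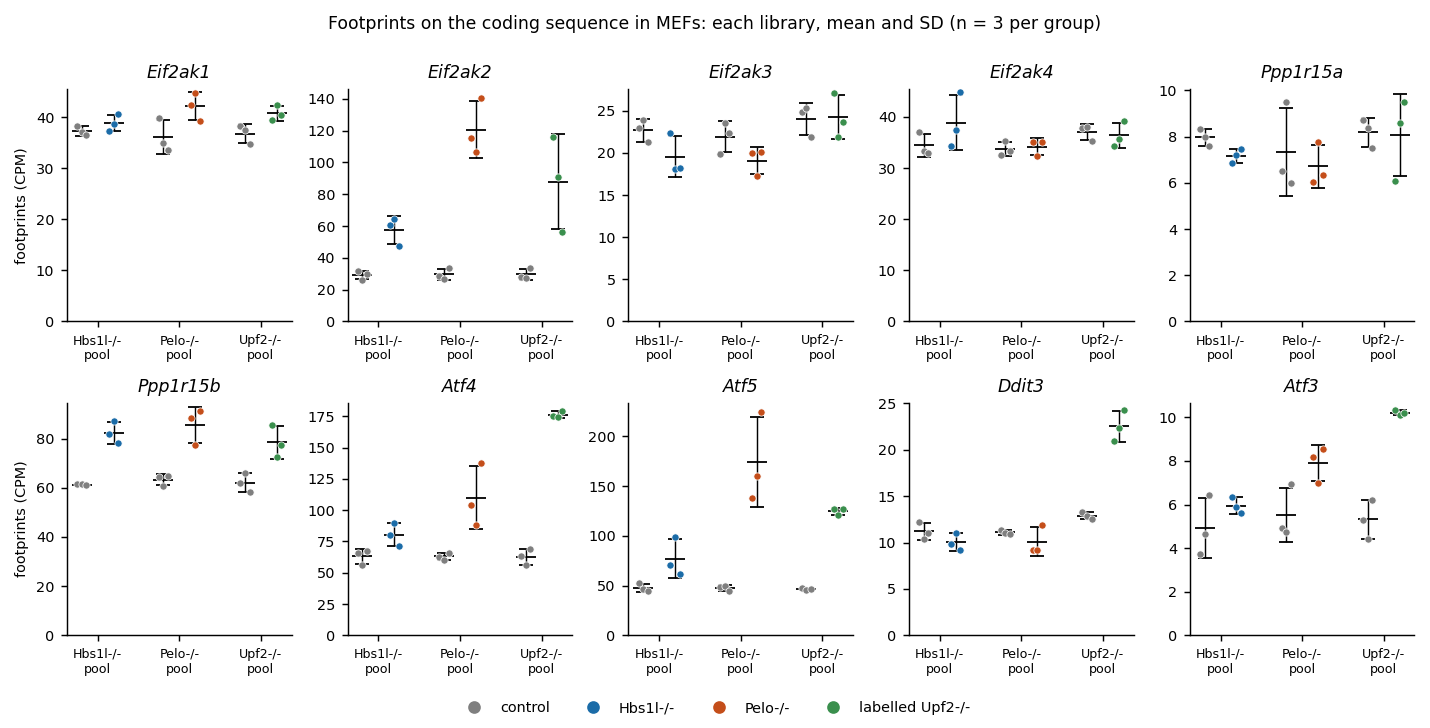
Footprints (CPM) of the 10 members in each MEF library, by sequencing pool, with mean and SD (n = 3). Eif2ak2, Ppp1r15b, Atf4 and Atf5 separate from their controls in all 3 pools, and Ddit3 separates in the pool of the libraries labelled Upf2-/- alone.

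The phosphatase subunits behaved differently from each other. Ppp1r15b (ENSMUSG00000046062.5, chr1:133131143-133139783, plus strand), the constitutive subunit, had 61.6, 61.4 and 61.0 CPM in the controls of the Hbs1l pool and 81.7, 87.0 and 78.3 CPM in Hbs1l-/- MEFs. Pelo-/- MEFs had 88.2, 77.3 and 91.1 CPM against 64.5, 60.7 and 64.9, and the libraries labelled Upf2-/- had 85.7, 72.4 and 77.3 CPM against 62.0, 65.9 and 58.3. No mutant library reached down to its controls. The rises were small, 0.42 (SE 0.07, adjusted p = 0.000653), 0.43 (SE 0.08, adjusted p = 0.00150) and 0.33 (SE 0.08, adjusted p = 0.00674). The mRNA of Ppp1r15b was 11.3, 15.7 and 13.4 TPM in controls and 20.6, 20.1 and 17.6 TPM in Hbs1l-/- MEFs, a rise of 0.46 (SE 0.10, adjusted p = 0.0127). This call was lost without control replicate 3 (adjusted p = 0.0506), without Hbs1l-/- replicate 2 (0.0539) and with protein-coding transcripts alone. Pelo-/- MEFs had 25.3 and 24 TPM (0.75, SE 0.11, adjusted p = 0.00321), and the libraries labelled Upf2-/- had 14, 17.1 and 12.7 TPM, which overlapped the controls (0.11, adjusted p = 0.539).

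Ppp1r15a (ENSMUSG00000040435.12, chr7:45522916-45526268, minus strand), the induced subunit, rose in mRNA in 2 mutants with no rise in footprints. Its mRNA was 26.3, 26.8 and 27.3 TPM in controls, 25.4, 24.4 and 28.3 in Hbs1l-/-, 49.5 and 47.0 in Pelo-/- and 68.6, 62.8 and 72.7 in the libraries labelled Upf2-/-. Controls and Hbs1l-/- overlapped, and the other mutants were clear of both. The log2 change was -0.09 in Hbs1l-/- MEFs (adjusted p = 0.597), 0.72 in Pelo-/- (SE 0.08, adjusted p = 0.00160) and 1.38 in the libraries labelled Upf2-/- (SE 0.13, adjusted p = 6.58e-05). In footprints, the libraries labelled Upf2-/- had 6.09, 8.59 and 9.51 CPM against 8.71, 8.39 and 7.49, and Pelo-/- MEFs had 6.04, 7.78 and 6.34 against 6.51, 9.52 and 5.97. Both sets overlapped their controls, with log2 changes of -0.00 (SE 0.18, adjusted p = 0.989) and -0.13 (SE 0.20, adjusted p = 0.616). The TE of Ppp1r15a fell by 1.39 (SE 0.22, adjusted p = 0.00120) in the libraries labelled Upf2-/- and by 0.86 (SE 0.21, adjusted p = 0.00530) in Pelo-/- MEFs.

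**Figure D4:**
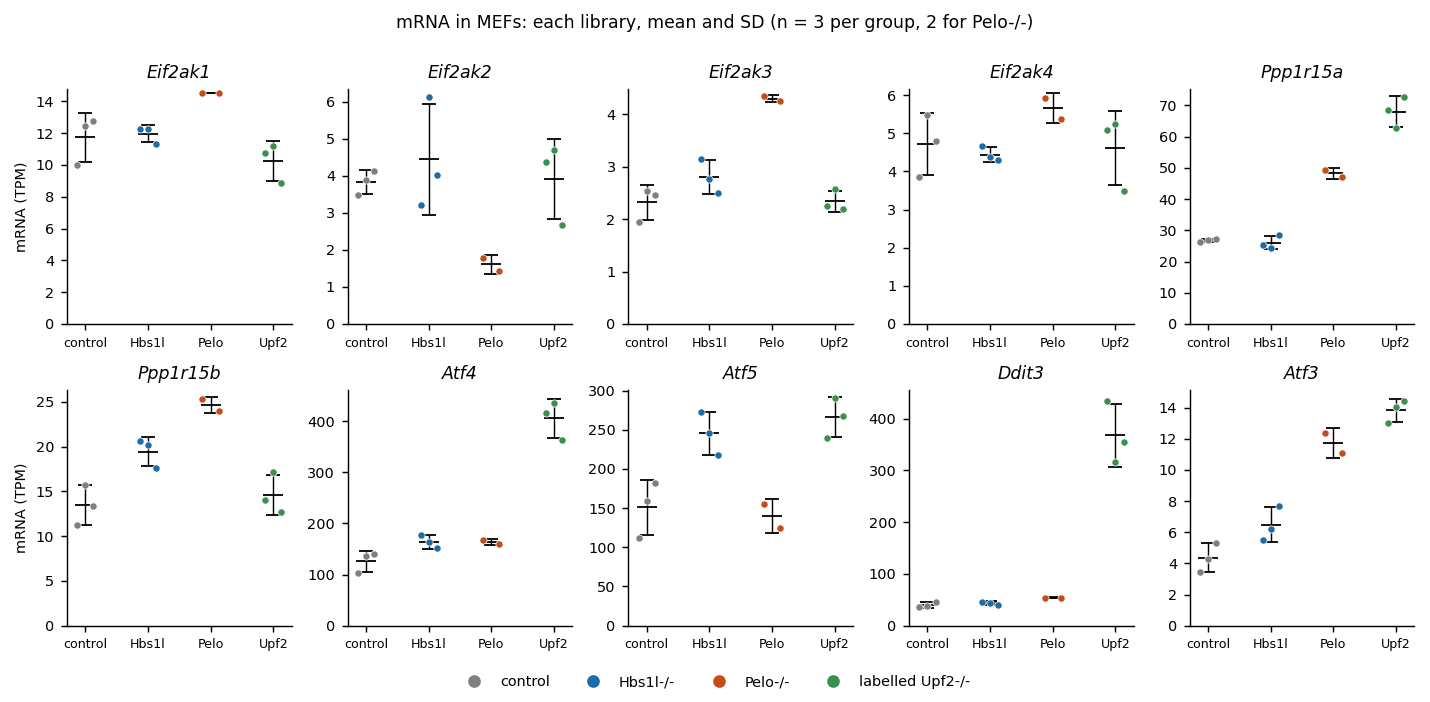
mRNA (TPM) of the 10 members in each MEF library, with mean and SD (n = 3, and 2 for Pelo-/-). Ddit3, Atf4 and Ppp1r15a stand highest in the libraries labelled Upf2-/-, and Eif2ak2 is lowest in Pelo-/-.

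Atf4 (ENSMUSG00000042406.8, chr15:80255184-80257541, plus strand), the main effector of the response, rose in footprints in all 3 MEF mutants, most in the libraries labelled Upf2-/-. Its footprints were 80.1, 89.5 and 71.1 CPM in Hbs1l-/- MEFs against 65.6, 56.4 and 67.7. Pelo-/- MEFs had 104, 88.2 and 138 CPM against 62.7, 60.5 and 65.9. The libraries labelled Upf2-/- had 176, 174 and 180 CPM against 63.4, 56.0 and 69.0. None of the groups overlapped, although the lowest Hbs1l-/- library was close to the highest control. The log2 changes were 0.34 (SE 0.10, adjusted p = 0.0154), 0.81 (SE 0.14, adjusted p = 0.00105) and 1.49 (SE 0.08, adjusted p = 5.73e-07). The Hbs1l-/- call was lost without control replicate 2 (adjusted p = 0.0565), Hbs1l-/- replicate 1 (0.0532) or Hbs1l-/- replicate 2 (0.0639).

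Atf4 mRNA was 103, 135 and 140 TPM in controls, 178, 164 and 151 in Hbs1l-/-, 168 and 160 in Pelo-/- and 417, 436 and 363 in the libraries labelled Upf2-/-. Every mutant library was above every control. The log2 change was 1.71 (SE 0.11, adjusted p = 4.94e-06) in the libraries labelled Upf2-/-, 0.35 (SE 0.10, adjusted p = 0.0348) in Hbs1l-/- MEFs and 0.27 (SE 0.10, adjusted p = 0.0907) in Pelo-/- MEFs. The Hbs1l-/- call was lost on leaving out any library other than control replicate 3, with adjusted p of 0.0591 to 0.0989, and with the replicate as a block. The TE of Atf4 was -0.23 in the libraries labelled Upf2-/- (SE 0.13, adjusted p = 0.239) and 0.00 in Hbs1l-/- MEFs (SE 0.15), and in Pelo-/- MEFs it rose by 0.54 (SE 0.20, adjusted p = 0.0416). That rise was 0.35 without Pelo-/- footprint replicate 3 (adjusted p = 0.0723), and leaving out any library other than Pelo-/- footprint replicate 2 or control mRNA replicate 1 lost the call (adjusted p = 0.0511 to 0.133).

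Atf5 (ENSMUSG00000038539.15, chr7:44812256-44816658, minus strand), which acts in the mitochondrial branch of the response, rose in footprints in all 3 MEF mutants. In Pelo-/- MEFs its footprints were 138, 160 and 224 CPM against 48.1, 49.9 and 44.7. Hbs1l-/- MEFs had 70.8, 98.7 and 61.4 CPM against 52.2, 46.6 and 44.3, and the libraries labelled Upf2-/- had 127, 121 and 127 CPM against 47.9, 45.7 and 46.0. All 3 mutants were clear of their controls. The log2 changes were 1.87 (SE 0.16, adjusted p = 1.25e-05) in Pelo-/-, 0.67 (SE 0.14, adjusted p = 0.00196) in Hbs1l-/- and 1.42 (SE 0.07, adjusted p = 3.13e-07) in the libraries labelled Upf2-/-. The difference between the Pelo-/- and Upf2-labelled rises, 0.45, did not pass (SE 0.19, adjusted p = 0.133).

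Atf5 mRNA was 112, 160 and 182 TPM in controls, 273, 246 and 218 in Hbs1l-/-, 156 and 125 in Pelo-/- and 240, 291 and 267 in the libraries labelled Upf2-/-. Pelo-/- libraries lay inside the control range and the other mutants above it. The log2 change was 0.67 (SE 0.13, adjusted p = 0.00922) in Hbs1l-/-, the same size as in footprints, 0.86 (SE 0.14, adjusted p = 0.00212) in the libraries labelled Upf2-/- and -0.21 (SE 0.15, adjusted p = 0.338) in Pelo-/-. Without control replicate 1 the Pelo-/- value was -0.33 and passed (adjusted p = 0.0473). The TE of Atf5 rose by 2.08 in Pelo-/- MEFs (SE 0.25, adjusted p = 4.10e-05) and by 0.55 in the libraries labelled Upf2-/- (SE 0.16, adjusted p = 0.0277), the latter lost on leaving out any 1 of the 6 footprint libraries, control mRNA replicate 3 or Upf2-labelled mRNA replicate 1 (adjusted p = 0.0507 to 0.0842). Its estimate was 0.02 in Hbs1l-/- MEFs (SE 0.21).

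Ddit3 (ENSMUSG00000025408.15, chr10:127290774-127296288, plus strand), the CHOP gene, had the largest mRNA change of the members and a small footprint change. Its mRNA was 35.7, 37.2 and 45.8 TPM in controls and 435, 316 and 355 TPM in the libraries labelled Upf2-/-. Hbs1l-/- MEFs had 46.7, 43.1 and 39.1 TPM and Pelo-/- MEFs 54.4 and 53.2 TPM. The Upf2-labelled libraries were far above all others, Pelo-/- just above the controls, and Hbs1l-/- within their reach. The log2 change was 3.31 (SE 0.16, 9.92-fold, adjusted p = 5.10e-07) in the libraries labelled Upf2-/-, 0.32 (SE 0.11, adjusted p = 0.0547) in Pelo-/- and 0.08 (adjusted p = 0.641) in Hbs1l-/-. The Ddit3 transcript whose starts are shown above went from a mean of 31.1 ± 2.71 to 330 ± 50.6 TPM in the libraries labelled Upf2-/-, and another, in which both upstream frames run past the coding start, from 7.66 ± 2.42 to 37.0 ± 10.9 TPM (SD, n = 3).

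Ddit3 footprints on the coding sequence were 21.0, 22.3 and 24.3 CPM in the libraries labelled Upf2-/- against 13.3, 12.8 and 12.6. Hbs1l-/- MEFs had 9.79, 11.1 and 9.16 CPM against 12.2, 10.4 and 11, and Pelo-/- MEFs had 9.15, 9.24 and 11.9 against 11.4, 11.1 and 10.9. The Upf2-labelled libraries were above their controls and the other mutants overlapped theirs. The log2 change was 0.80 (SE 0.11, adjusted p = 0.000152) in the former, -0.18 (SE 0.14, adjusted p = 0.370) in Hbs1l-/- and -0.13 (SE 0.14, adjusted p = 0.487) in Pelo-/-. The TE of Ddit3 fell by 2.52 in the libraries labelled Upf2-/- (SE 0.19, adjusted p = 7.05e-06) and by 0.44 in Pelo-/- MEFs (SE 0.17, adjusted p = 0.0496). The Pelo-/- call was lost under DESeq2, without the filter on low counts, with protein-coding transcripts alone and on leaving out any library other than Pelo-/- footprint replicate 3 or control mRNA replicate 3 (adjusted p = 0.0669 to 0.139).

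The uORF of Ddit3 has a footprint record of its own (ENSMUSG00000116429.1, 102 coding bases between chr10:127290829-127293753, plus strand), whose ATG is upstream start 1 above. In control MEFs of the Hbs1l pool it carried 124 ± 5.47 CPM per kilobase, more than any coding sequence of the members, against 22.2 on the Ddit3 coding sequence. Its footprints were 31.5, 34.3 and 26.7 CPM in the libraries labelled Upf2-/- against 12.5, 10.6 and 9.90. They were 7.55, 8.04 and 8.62 CPM in Hbs1l-/- MEFs against 13.3, 12.4 and 12.2, and 7.84, 6.75 and 6.99 in Pelo-/- MEFs against 9.42, 11.1 and 11.1. The uORF thus stood above its controls in the libraries labelled Upf2-/- and below them in the other mutants, with no overlap. It rose by 1.49 (SE 0.13, adjusted p = 9.72e-06) in the former, and fell by 0.65 (SE 0.14, adjusted p = 0.00267) in Hbs1l-/- and by 0.56 (SE 0.14, adjusted p = 0.00761) in Pelo-/-.

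The share of Ddit3 footprints on the uORF was 57.7% ± 4.55 in the libraries labelled Upf2-/- and 45.9% ± 2.23 in their controls (SD, n = 3 each). It was 44.7% ± 3.35 against 53.1% ± 1.28 in Hbs1l-/- MEFs and 41.8% ± 4.58 against 48.7% ± 2.93 in Pelo-/- MEFs. Pelo-/- replicate 3 was the lowest at 37.0%, with 46.1% and 42.2% in Pelo-/- replicates 1 and 2 and 45.3% to 50.6% in their controls. The exact two-sided permutation p was 0.1 for Upf2-labelled, 0.1 for Hbs1l-/- and 0.2 for Pelo-/-, and 0.1 is the smallest that 3 against 3 can give. The 3 control means differed among themselves, from 45.9% to 53.1%, although the pools hold nearly the same control libraries, a spread close to the Pelo-/- and Hbs1l-/- differences. The Hbs1l-/- share was level with that of the Upf2-pool controls.

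Atf3 (ENSMUSG00000026628.13, chr1:191170296-191218039, minus strand), a stress-induced repressor and activator, rose in the mRNA of all 3 mutants. It was 3.47, 4.28 and 5.33 TPM in controls, 5.51, 6.23 and 7.70 in Hbs1l-/-, 12.4 and 11.1 in Pelo-/- and 13, 14.1 and 14.4 in the libraries labelled Upf2-/-. No mutant library overlapped the controls. The log2 changes were 0.67 (SE 0.13, adjusted p = 0.00802), 1.24 (SE 0.12, adjusted p = 0.000969) and 1.90 (SE 0.16, adjusted p = 2.87e-05). In footprints, Atf3 was 10.3, 10.1 and 10.2 CPM in the libraries labelled Upf2-/- against 5.31, 4.43 and 6.22, 8.19, 6.99 and 8.53 CPM in Pelo-/- MEFs against 4.93, 4.72 and 6.95, and 6.36, 5.87 and 5.6 CPM in Hbs1l-/- MEFs against 3.73, 4.65 and 6.43. The Hbs1l-/- values overlapped their controls. The footprint changes were 0.94 (SE 0.17, adjusted p = 0.000895), 0.52 (SE 0.18, adjusted p = 0.0394) and 0.28 (SE 0.22, adjusted p = 0.361) in that order. The Pelo-/- call was lost under DESeq2 and without control replicate 1 or 2 or Pelo-/- replicate 1 or 3 (adjusted p = 0.0982 to 0.143). TE fell by 0.97 in the libraries labelled Upf2-/- (SE 0.23, adjusted p = 0.00942) and by 0.71 in Pelo-/- MEFs (SE 0.22, adjusted p = 0.0204), the latter lost without control footprint replicate 3 (adjusted p = 0.0573) or Pelo-/- mRNA replicate 1 (0.0755).

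The mutants were compared with each other by the interaction of pool and genotype. Pelo-/- footprints differed from Hbs1l-/- footprints for 2 members (5.55% of genes differed), Atf5 being higher by 1.21 (SE 0.24, adjusted p = 0.00966) and Eif2ak2 by 1.06 (SE 0.18, adjusted p = 0.00344), and without Pelo-/- replicate 2 Atf4 also differed (0.61, adjusted p = 0.0369). The libraries labelled Upf2-/- differed from Hbs1l-/- for 3 (4.93% of genes), with Atf4 higher by 1.15 (SE 0.13, adjusted p = 9.96e-05), Ddit3 by 0.98 (SE 0.16, adjusted p = 0.00219) and Atf5 by 0.75 (SE 0.17, adjusted p = 0.0197). The Atf5 difference was lost without Hbs1l-pool control replicate 1 (adjusted p = 0.0660) or Hbs1l-/- replicate 1 (0.0566), and without Upf2-labelled replicate 3 Eif2ak2 also differed (0.82, adjusted p = 0.0242). Pelo-/- differed from the libraries labelled Upf2-/- for 2 members (13% of genes), Ddit3 by -0.93 (SE 0.16, adjusted p = 0.00226) and Atf4 by -0.68 (SE 0.18, adjusted p = 0.0211, or 0.0538 without Pelo-/- replicate 1). Without that replicate Atf5 also differed (0.60, adjusted p = 0.0273). The Ddit3 uORF differed between the libraries labelled Upf2-/- and both other mutants, by 2.14 from Hbs1l-/- (SE 0.18, adjusted p = 7.06e-06) and by -2.05 for Pelo-/- against Upf2-labelled (SE 0.18, adjusted p = 1.48e-05). These tests treat control libraries that are nearly the same as independent. All of the 7 member calls and the 2 for the uORF were made again when the mutant libraries were compared directly. That comparison crosses sequencing pools and called 15.6%, 16.3% and 26.7% of all genes, in the order above.

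The mutants' mRNA shares 1 control group and was compared without it. Pelo-/- was higher than Hbs1l-/- for 5 members and lower for 2 (35.2% of genes differed). Eif2ak2 (-1.52, SE 0.27, adjusted p = 0.00451) and Atf5 (-0.83, SE 0.11, adjusted p = 0.00121) were lower, while Ppp1r15a was higher by 0.85 (SE 0.11, adjusted p = 0.00115), Eif2ak3 by 0.62, Atf3 by 0.61, Eif2ak4 by 0.33 and Ppp1r15b by 0.33. Leaving out Pelo-/- replicate 1 or 2 left 3 calls each. The libraries labelled Upf2-/- were higher than Hbs1l-/- for Ddit3 (3.24), Ppp1r15a (1.47), Atf4 (1.37) and Atf3 (1.23) and lower for Ppp1r15b (-0.34, adjusted p = 0.0407, lost without any library other than Upf2-labelled replicate 2), which makes 4 higher and 1 lower (27.1% of genes). Pelo-/- against the libraries labelled Upf2-/- gave 3 higher and 6 lower (28.9% of genes), led by Ddit3 (-2.96), Atf4 (-1.41), Eif2ak2 (-1.30) and Atf5 (-1.03), and 5 of these 9 calls were left without Pelo-/- replicate 1 or 2.

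Genes downstream of ATF4 and CHOP were followed in a list of 26. In footprints 9 of 24 tested rose and 3 fell in Hbs1l-/- MEFs (median 0.08), 15 of 25 rose and 2 fell in Pelo-/- (0.61), and 14 of 25 rose and 0 fell in the libraries labelled Upf2-/- (0.39), beside all-gene medians of -0.01, 0.00 and 0.00. Of all genes 34.1%, 44.1% and 43.4% changed. Cebpb, a C/EBP partner of both factors, rose by 2.26 in Pelo-/- footprints (SE 0.10) and by 0.71 in Hbs1l-/- (SE 0.10), and Stc2, a secreted glycoprotein of the stress response, rose by 1.63 in Pelo-/-, 1.06 in the libraries labelled Upf2-/- and 0.87 in Hbs1l-/-. Nupr1, a small chromatin-associated stress protein, rose by 1.10 in the libraries labelled Upf2-/- (SE 0.09) and fell by 1.14 in Hbs1l-/- (SE 0.10), and Trib3, a feedback inhibitor of ATF4, rose by 1.08 in the former. In mRNA 13 of 25 rose and 1 fell in Hbs1l-/- (median 0.40), 3 of 24 rose and 7 fell in Pelo-/- (-0.28), and 6 of 25 rose and 2 fell in the libraries labelled Upf2-/- (-0.02), where 23.1%, 32.1% and 20% of all genes changed. Nupr1 (-1.20), Cth (-1.11) and Pck2 (-0.86) led the falls in Pelo-/- mRNA. TE of the list rose for 15 of 25 and fell for 1 in Pelo-/- (median 0.76), and rose for 8 of 25 and fell for 2 in the libraries labelled Upf2-/- (0.42), where 40.5% and 18% of all genes changed. In Hbs1l-/- it changed for 0 of 24 (-0.21). As for Eif2ak2, footprints and mRNA of Pelo-/- MEFs came from different dishes, and the part of this in the TE of the list was not tested.

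ER chaperones and other branches of the unfolded protein response (16 genes) gave 0 higher and 4 lower in Hbs1l-/- footprints, 1 higher and 4 lower in Pelo-/- and 8 higher and 1 lower in the libraries labelled Upf2-/- (medians -0.05, -0.04 and 0.18). The 4, 5 and 9 of 16 that changed stand beside 34.1%, 44.1% and 43.4% of all genes. In the last, Ern1, the IRE1 sensor, rose by 0.79, Hspa5, the chaperone BiP, by 0.50 and Hyou1, another ER chaperone, by 0.48. Their mRNA gave 3 higher and 0 lower, 3 higher and 2 lower, and 2 higher and 0 lower in the same order of mutants, beside 23.1%, 32.1% and 20% of all genes that changed. Another list (19 genes) held subunits of eIF2 and eIF2B, partners of the kinases and Eif2a, which encodes the separate initiation factor eIF2A. It gave 2 higher and 2 lower, 1 higher and 5 lower, and 3 higher and 3 lower in footprints, or 4, 6 and 6 of 19, below those shares of all genes. Impact, which restrains GCN2, fell by 0.62 in Hbs1l-/- and by 0.92 in Pelo-/-, and Map3k20, the ribosome-stress kinase ZAK, fell by 0.49, 0.60 and 0.60 in the 3 mutants. Gcn1, which activates GCN2, rose by 0.45 in Hbs1l-/- and by 0.33 in Pelo-/-, and Eif2b1, an eIF2B subunit gene, and Dele1, which relays mitochondrial stress to HRI, rose by 0.60 and 0.48 in the libraries labelled Upf2-/-. In Pelo-/- mRNA 0 of 19 rose and 9 fell, led by Eif2s2 (-1.96), Eif2a (-1.23) and Eif2s1 (-1.15), where 32.1% of all genes changed and 2444 of 14705 fell. TE of the list there rose for 6 of 19 and fell for 1, beside 40.5% of all genes that changed in TE. In mRNA 3 rose and 3 fell in Hbs1l-/- and 4 rose and 4 fell in the libraries labelled Upf2-/-. Of 6 other mRNAs with uORFs, 2, 3 and 4 rose in footprints and 0 fell, beside 17.4%, 22.9% and 22.3% of all genes that rose, with Ifrd1 (0.68, 0.61 and 0.49) and Eprs (0.41, 0.32 and 0.40) among them in each mutant.

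Over the 18 MEF footprint libraries, the genes whose log2 CPM was most like that of Atf4, among 9838 genes, were Aars (Pearson r = 0.987), Yars (r = 0.982) and Cnbp (r = 0.974). Aars and Yars encode tRNA synthetases and Cnbp a nucleic acid-binding protein. Of the members, Atf3 was the closest (r = 0.913, rank 95), then Atf5 (r = 0.840) and Eif2ak2 (r = 0.815), while Eif2ak3, Eif2ak4 and Ppp1r15a had r of 0.13, 0.22 and -0.05. The libraries share their controls almost fully and group by genotype, so these values describe the pattern only.

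In Hbs1l -/- embryos 0 of the 9 members that passed the filter on low counts changed (edgeR) and DESeq2 also found 0, where 1.87% of all genes changed. At an unadjusted p under 0.05 there were 0 members, beside 2121 of 11416 genes. The median of these 9 was -0.18, beside 0.01 for all genes. Ddit3 did not pass the filter, with 1, 15 and 10 counts in controls and 14, 7 and 4 in mutants. Eif2ak1 was 86.4, 82.6 and 78.0 CPM in mutants and 99.2, 98.9 and 96.0 CPM in controls. It was the 1 member without overlap, as were 23.8% of genes (log2 change -0.25, SE 0.15, adjusted p = 0.379). Atf4 was 62.8, 46.8 and 64.2 CPM against 61.2, 68.4 and 66.9, and the groups overlapped (-0.18, SE 0.17, adjusted p = 0.604). Atf5 was 16, 3.78 and 1.09 CPM against 9.48, 12.9 and 10.3, with mutant replicate 1 alone above the controls. Its log2 change was -0.51 (SE 0.58, adjusted p = 0.662) with all libraries and -2.07 (SE 0.49, adjusted p = 0.00979) without that replicate, when 2309 genes changed in place of 214. Trophoblast markers were higher in these mutants for 3 of 3 tested (78.5 to 602 CPM summed over 4 markers, against 3.56 to 6.08) and embryonic erythroid markers lower for 2 of 4 (3152 to 8632 CPM against 12979 to 16963), and their part in the member values was not tested. In controls 2 of the 4 trophoblast markers had a mean of at least 1 CPM. A rise of a marker that passed the filter only through the mutants is built into that count. Over all genes 105 of 11416 rose and 109 fell. Ifrd1, of the other uORF list, rose by 1.44 (SE 0.20, adjusted p = 0.00235), Asns, an asparagine synthetase gene and ATF4 target, rose by 0.74 (SE 0.14, adjusted p = 0.0208) and Eif2s3x, an eIF2 subunit gene, fell by 1.42 (SE 0.31, adjusted p = 0.0383). Each was the only gene called among the 6, 20 and 19 tested in its list.

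In Atoh-Cre;Hbs1l cKO cerebella 0 of 10 members changed (edgeR) and DESeq2 found 0, where 0.0624% of genes changed. At an unadjusted p under 0.05 there were 2 members, beside 1936 of 14430 genes. The members' median was 0.01, beside 0.00 for all genes. The pair with an unadjusted p under 0.05 were also the 2 without overlap, against 18.3% of genes. Ddit3 was 3.74, 4.56 and 4.83 CPM in mutants and 2.16, 2.60 and 2.50 CPM in controls (log2 change 0.84, SE 0.22, adjusted p = 0.162). Ppp1r15a was 3.51, 5.65 and 2.95 CPM against 2.41, 2.03 and 2.32 (0.82, SE 0.29, adjusted p = 0.282). Atf4 was 37.1, 58.0 and 44.0 CPM against 47.4, 47.1 and 41.7, with overlap (0.03, SE 0.17), and the kinase genes had estimates between -0.08 and -0.01. The Ddit3 uORF held 62.3% ± 4.87 of the gene's footprints in mutants and 72.0% ± 5.97 in controls (exact two-sided permutation p = 0.1, n = 3 each), and its own change was 0.16 (SE 0.31). Control replicate 3 stood apart at 78.8%, against 68.3% and 68.8% in control replicates 1 and 2, while mutants had 57.6%, 67.3% and 62.1%. In embryos the share was 39.6% ± 23.7 against 39.4% ± 25.3 (exact p = 1), with at most 15 counts on either feature in a library. The interaction of tissue and genotype passed for 0 of 10 members (edgeR, with 0.732% of genes differing), and DESeq2 found 0. At an unadjusted p under 0.05 there were 2 members, beside 2298 of 14624 genes, namely Ppp1r15a (-1.59, SE 0.62, edgeR adjusted p = 0.227) and Ddit3 (-1.44, SE 0.67, edgeR adjusted p = 0.316).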

How the data were processed

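The authors deposited raw footprint counts per gene. Per their methods, reads were clipped, cleared of rRNA, snoRNA and tRNA with Bowtie2 2.2.3, mapped to mm10 with HISAT2 2.1.0 and counted over coding sequences (Gencode M24) with featureCounts. For mRNA the authors deposited kallisto 0.42.4 estimated counts and TPM per transcript. TPM, as the authors deposited it, is scaled for length and depth.

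Estimated counts and TPM were summed over the transcripts of a gene, and the former rounded. Histone genes were left out of footprint and TE tests, as in the study. Every fit held the libraries of its comparison alone and used edgeR 4.0.16 (R 4.3.3; filterByExpr, TMM, quasi-likelihood test) and p values were Benjamini-Hochberg adjusted over all genes tested, threshold 0.05. TE was the assay by genotype interaction, and differences between mutants the pool by genotype interaction. A member counted as not overlapping when all libraries of a group lay above or below the other group. CPM used TMM library sizes. On simulated counts, the fits tried recovered 61% to 95% of genes changed by 1 on the log2 scale, and 5.34% to 7.73% of their calls were false.

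All members were named, with up to 3 genes past the threshold with the largest change from each list and the 3 genes most like Atf4 (log2 of CPM plus 0.5, mean of at least 5 CPM). Members and lists were chosen with earlier results of these data known, so the lists give no independent support. Alternatives were DESeq2 1.42.0, RLE factors, no filter, a replicate block, each library left out, protein-coding transcripts alone, controls of the other pools and mutants compared directly. The direct comparison of mutants was added after seeing the data. MEF replicates were single embryos.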

Additional observations from a re-analysis of the deposited data

Results flagged for a closer look

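In 9 cases footprint effects differed between MEF mutants by a test of the difference itself (edgeR interaction of pool and genotype). Between Pelo-/- and Hbs1l-/- these were Eif2ak2 (1.06 on the log2 scale) and Atf5 (1.21). Between the libraries labelled Upf2-/- and Hbs1l-/- they were Atf4 (1.15), Atf5 (0.75), Ddit3 (0.98) and the Ddit3 uORF (2.14). Between Pelo-/- and the libraries labelled Upf2-/- they were Atf4 (-0.68), Ddit3 (-0.93) and the Ddit3 uORF (-2.05). The pools hold nearly the same control libraries, which these tests count as independent, and all 9 were found again when mutant libraries were compared directly, across pools, where 15.6% to 26.7% of all genes differed.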

How the results depend on the processing

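Over 18 comparisons the edgeR fits made 69 member calls, and none turned direction under the alternatives run. RLE factors lost 0, DESeq2 lost 2 (Atf3 footprints and Ddit3 TE in Pelo-/-), no filter on low counts lost 4, protein-coding transcripts alone lost 4 of 47 and controls of the other pools lost 0 of 27. Those controls nearly repeat the original ones and were counted as independent libraries, so the last count is no check on the calls. With them 44.4%, 55.3% and 52.7% of all genes were called in Hbs1l-/-, Pelo-/- and Upf2-labelled footprints, against 34.1%, 44.1% and 43.4%. Leaving out single libraries lost 19 and held 50. The count of members past the threshold then ranged from 0 to 1 in embryo footprints (1 without Hbs1l -/- replicate 1), from 2 to 3 in Hbs1l-/- mRNA, from 4 to 6 in Pelo-/- TE, from 3 to 8 in Pelo-/- against Hbs1l-/- mRNA and from 5 to 9 in Pelo-/- against Upf2-labelled mRNA. The causes were not tested. Same-numbered libraries did not pair: in no comparison did every pair correlate above 0.1. With the replicate as a block 5 member calls were lost, all in mRNA. They were Atf4 in Hbs1l-/-, Ppp1r15b in Upf2-labelled against Hbs1l-/-, and Eif2ak3, Eif2ak4 and Ppp1r15b in Pelo-/- against Hbs1l-/-, which kept 4 of 7 member calls. Over all genes the block moved the embryo count from 214 to 564, the Pelo-/- mRNA count from 4727 to 2955, the Pelo-/- against Hbs1l-/- mRNA count from 5235 to 3030 and the Upf2-labelled against Hbs1l-/- effect from 608 to 394. Counts over all genes also moved in embryos (DESeq2 432, no filter 703), cerebella (9, DESeq2 484, no filter 16, block 0) and Hbs1l-/- TE (2, DESeq2 313, no filter 22, block 23, protein-coding alone 0, other controls 397), and for embryo against cerebellum (107, DESeq2 581). Leaving out single libraries gave 28 to 2309 in embryos, 0 to 560 in cerebella (560 without control replicate 3), 8 to 1123 for embryo against cerebellum (without embryo control replicate 2 and Hbs1l -/- embryo replicate 1), 0 to 39 in Hbs1l-/- TE (39 without control mRNA replicate 1) and, without Pelo-/- replicate 1 or 2, 1743 (11.4%) or 1506 (9.71%) in Pelo-/- mRNA. The lowest shares of genes called on leaving out 1 library were 11.1% in Hbs1l-/- mRNA (control replicate 2), 10.6% in Upf2-labelled mRNA (control replicate 2), 10.2% in Upf2-labelled TE (control mRNA replicate 3) 16.2% in Upf2-labelled against Hbs1l-/- mRNA (Hbs1l-/- replicate 2) and, without Pelo-/- replicate 2, 12% in Pelo-/- against Hbs1l-/- mRNA and 8.54% in Pelo-/- against Upf2-labelled mRNA. For the footprint differences between mutants they were 3.00% (Pelo-/- against Hbs1l-/-), 2.82% (Upf2-labelled against Hbs1l-/-) and 8.53% (Pelo-/- against Upf2-labelled), each without a control replicate 1. Depth limits the embryo values of Ddit3, Ppp1r15a and Atf5, which rest on 1 to 113 counts.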
